A study of Mus musculus with 8 samples.

Results

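The blood-testis barrier junction genes followed here are 9 mouse genes, Cldn3, Cldn5, Cldn11, Ocln, Tjp1, F11r, Gja1, Cdh2 and Espn, chosen by name as tight, adherens and gap junction genes of that barrier. They were found by symbol, each as 1 of 55421 Ensembl gene rows in every library. RNA sequencing was done on whole testis of wild-type male mice, with 8 libraries in 4 groups of 2. The LPS+DHEA+Nb group received LPS (lipopolysaccharide, from the outer membrane of bacteria and used to provoke inflammation) and 6 h later dehydroepiandrosterone (DHEA), an androgen precursor, together with Nb23-bi, which the labels name but do not describe. The LPS+DHEA group received LPS and DHEA 6 h later, the LPS group received LPS alone, and the CTRL group received phosphate-buffered saline. All injections were intraperitoneal. The labels used here state no age, dose or collection time, nor whether each library is a different mouse, so the p-values measure only the spread between libraries, which may be technical.

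The barrier is built by neighbouring Sertoli cells, the somatic nurse cells of the seminiferous tubule, and it closes off the meiotic and haploid germ cells from blood and lymph. Claudins and occludin span the membrane and seal the gap between cells, the scaffold ZO-1 ties them to actin, N-cadherin and the actin bundles of the ectoplasmic specialization hold the cells together, and connexin 43 forms channels between them. The junctions open and close as germ cells move through, under the control of androgens and of cytokines. Inflammation is known as a condition in which the barrier can become leaky.

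In GENCODE M21 (GRCm38) the genes lie as follows. The claudin genes are Cldn3 (ENSMUSG00000070473) at 134986214 to 134987472 on chromosome 5, Cldn5 (ENSMUSG00000041378) at 18776847 to 18778262 on chromosome 16 and Cldn11 (ENSMUSG00000037625) at 31149920 to 31164324 on chromosome 3, all on the plus strand. The other tight junction genes are Ocln (ENSMUSG00000021638) at 100496507 to 100552718 on chromosome 13 and Tjp1 (ENSMUSG00000030516) at 65296165 to 65527781 on chromosome 7 on the minus strand, and F11r (ENSMUSG00000038235) at 171437535 to 171464603 on chromosome 1 on the plus strand. Gja1 (ENSMUSG00000050953) at 56377330 to 56402513 on chromosome 10 is on the plus strand, and Cdh2 (ENSMUSG00000024304) at 16588877 to 16809246 on chromosome 18 and Espn (ENSMUSG00000028943) at 152120331 to 152152371 on chromosome 4 are on the minus strand.

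The libraries held 61.3 to 64.5 M counts each, and 26414 genes passed the filter on low counts, all 9 junction genes among them. Pairs of libraries correlated (log2 CPM) at 0.9662 to 0.9713 across groups, and at 0.9695 to 0.9711 inside a group. Markers of Sertoli cells were present in every library, with a summed level over 14 genes of 425.3 and 436.5 CPM (counts per M counts of the TMM-scaled library) in LPS+DHEA+Nb, 432.2 and 443.4 CPM in LPS+DHEA, 407.6 and 441.1 CPM in LPS, and 441 and 431.9 CPM in CTRL. These ranges overlap between all groups. Of 10 epididymal or simple epithelium genes, Lcn5 was at 0 in all 8 libraries, and Lcn8, Lcn9, Crisp1 and Cst11 had at most 0.16 CPM in any library. Krt18 and Pax8 had at most 0.678 CPM, while Rnase10 had 2.72 to 4.63 CPM, Krt8 10.7 to 13.6 CPM and Epcam 28.7 to 35.9 CPM. The source of these last 3 was not tested. Since whole testis was sequenced, fewer cells of a type and less RNA per cell cannot be told apart.

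No difference between groups passed the test for any of the 9 junction genes in 6 comparisons. Of the 54 fitted fold changes none passed an adjusted p of 0.05 in edgeR, and none passed with DESeq2 or limma-voom. At an unadjusted p under 0.05 there were 2, Cldn3 in LPS versus CTRL and Cldn11 in LPS+DHEA+Nb versus LPS. All 54 of the 95% intervals, each taken for its gene alone, lay inside a change of 2-fold in either direction, and 44 lay inside 1.5-fold. The lowest bound was 0.641-fold, for Ocln in LPS+DHEA versus CTRL, and the highest was 1.61-fold, for Cldn5 in LPS+DHEA+Nb versus LPS. Differences inside these intervals could not be shown or set aside with 2 libraries a group.

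Levels per length of exon, in CPM per kb of the gene's joined exons, placed Cldn3 and Cldn11 highest and Ocln lowest, with the third claudin gene, Cldn5, among the lower genes. Cldn3 (median 47.1 CPM per kb over the 8 libraries) and Cldn11 (45.3) overlapped each other. Tjp1 (12.6), Espn (12.1) and Cdh2 (9.34) followed, each overlapping its neighbour in this order. F11r (6.87), Cldn5 (4.73) and Gja1 (4.24) came next, and Ocln (1.36) was lowest, with no library of Ocln reaching any library of Gja1. The lowest Cldn11 library (41.4) lay above the highest Tjp1 library (13.8), and the lowest Cdh2 library (8.52) lay above the highest F11r library (7.71).

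**Figure D1:**
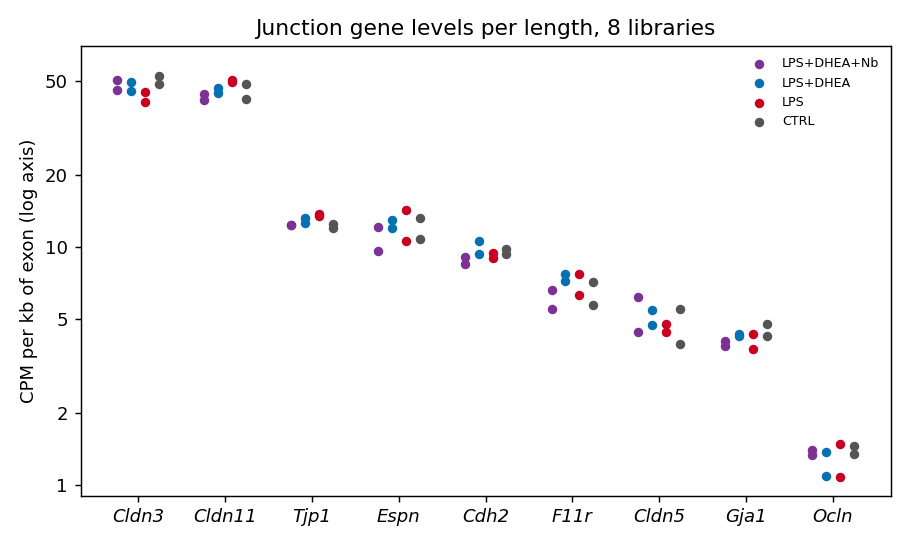
Levels of the 9 junction genes per kb of exon on a log axis, each point 1 library, coloured by group and ordered by the median over 8 libraries. Cldn3 and Cldn11 lie between 40.6 and 52.1 CPM per kb and Ocln between 1.08 and 1.48. Both LPS points lie below every other library for Cldn3 and above every other library for Cldn11 and Tjp1.

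Cldn3 and Cldn11, the claudins with the highest level per length, are shown with their promoter windows, 250 bases before to 50 bases after the RefSeq start site (GRCm38.p6), because they differ in the motifs held there. Cldn3 encodes a claudin of newly forming barrier strands whose expression in mouse Sertoli cells is known to depend on androgen receptor. Cldn11 encodes the main strand-forming claudin of the barrier, and male mice without it are infertile. Capitals mark GGGCGG (GC box) or CCAAT matches on either strand.
Cldn3, chr5:134985964-134986263, plus strand: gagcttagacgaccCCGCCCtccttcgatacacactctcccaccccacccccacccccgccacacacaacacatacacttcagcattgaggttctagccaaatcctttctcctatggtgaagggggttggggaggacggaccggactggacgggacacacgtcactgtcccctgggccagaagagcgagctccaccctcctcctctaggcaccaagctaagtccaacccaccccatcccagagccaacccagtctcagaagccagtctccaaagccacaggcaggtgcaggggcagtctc
Cldn11, chr3:31149670-31149969, plus strand: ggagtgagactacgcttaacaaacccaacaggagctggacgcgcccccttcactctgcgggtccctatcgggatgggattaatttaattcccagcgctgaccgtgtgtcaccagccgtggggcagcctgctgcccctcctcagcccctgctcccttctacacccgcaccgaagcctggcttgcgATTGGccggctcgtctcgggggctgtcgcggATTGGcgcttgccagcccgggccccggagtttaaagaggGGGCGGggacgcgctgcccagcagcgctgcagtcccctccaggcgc
The Cldn11 window holds 2 CCAAT matches, both as ATTGG, and 1 GGGCGG, and the Cldn3 window holds 1 GGGCGG, as CCGCCC, and no CCAAT. The motif search covered windows of 8 of the 9 genes, 11 in all since Ocln and Espn have several. Cdh2 was left out of this search, so the shares below do not cover it. GGGCGG was present in 9 of the 11 windows and in 35.7% of 32851 promoters, and CCAAT in 5 of 11 and 37.4%. The windows are not independent, since those of Ocln overlap. Their GC content ran from 47.7% to 68% and was not matched to that of the other promoters. None of the 11 windows held TATAAA (13.6% of promoters) or AGAACA, the core of androgen response elements (19%). Each motif was searched on both strands with overlaps allowed. These are matches of letters in short windows and say nothing of factor binding.

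The comparison of LPS with CTRL asks whether LPS changed the barrier genes. No junction gene was called, against 0.295% of all 26414 genes tested, and 1 had an unadjusted p under 0.05, as did 7.11% of all genes. The members' median log2 fold change was -0.04, beside -0.0015 over all genes, and 4 were positive and 5 negative. Cldn3 had 56.6 and 51.1 CPM in LPS and 60.9 and 65.6 CPM in CTRL. Both LPS libraries lay below both CTRL libraries, and the log2 fold change was -0.23 (SE 0.09, 95% interval -0.44 to -0.03, adjusted p = 0.633). The antisense gene Wbscr25 shares 40 exon bases with Cldn3 and had 23317 to 27853 counts against 3193 to 4196 for Cldn3. The sources used here do not say whether strand was used in counting, so some reads in this overlap could have been counted for the wrong gene.

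Cldn11 stood at 92.5 and 94.4 CPM in LPS and at 90.5 and 78.2 CPM in CTRL. Its LPS libraries were above both CTRL libraries, by a log2 fold change of 0.15 (SE 0.09, adjusted p = 0.81) that the test did not call. Tjp1, which encodes the scaffold protein ZO-1, was measured at 105 and 107.9 CPM in LPS, against 93.7 and 97.7 CPM in CTRL. It had the same pattern, with no overlap and a log2 fold change of 0.15 (SE 0.07, adjusted p = 0.705). Thus 3 of 9 junction genes did not overlap between LPS and CTRL, as did 37.0% of all genes tested. These were 2 higher, against 18.9% of all genes, and 1 lower, against 18.1%.

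The remaining membrane proteins of the tight junction gave wider spreads. Ocln, encoding occludin, had 6.25 and 4.56 CPM in LPS and 5.71 and 6.14 CPM in CTRL. The LPS libraries enclosed both CTRL libraries, and the gene rested on 282 to 397 counts per library. F11r, which encodes the immunoglobulin-type adhesion protein JAM-A, had 16.8 and 20.5 CPM in LPS, against 19 and 15.2 CPM in CTRL. The groups overlapped, as they did for Cldn5 with 6.2 and 6.73 CPM in LPS and 5.53 and 7.74 CPM in CTRL. Cldn5 is best known as the claudin of endothelial tight junctions. Summed over 11 endothelial markers, the LPS libraries had 59.2 and 65.3 CPM and the CTRL libraries 42.9 and 43.2 CPM, with no marker called by edgeR, 4 at an unadjusted p under 0.05 and 3 called by DESeq2. The part of endothelial RNA in the Cldn5 values was not tested.

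Gap and adherens junction genes overlapped between LPS and CTRL. Gja1, encoding connexin 43, the main connexin of Sertoli cells, had 38.2 and 44 CPM in LPS, against 48.6 and 43.5 CPM in CTRL, a log2 fold change of -0.16 (SE 0.10, adjusted p = 0.82). The higher LPS library lay just above the lower CTRL library. Cdh2, which encodes N-cadherin, had 72.2 and 76.1 CPM in LPS and 75.6 and 79.2 CPM in CTRL. Espn, encoding the actin-bundling protein espin of the ectoplasmic specialization, had 87.9 and 118.5 CPM in LPS, against 89.5 and 109.8 CPM in CTRL. The LPS libraries of Espn enclosed those of CTRL.

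**Figure D2:**
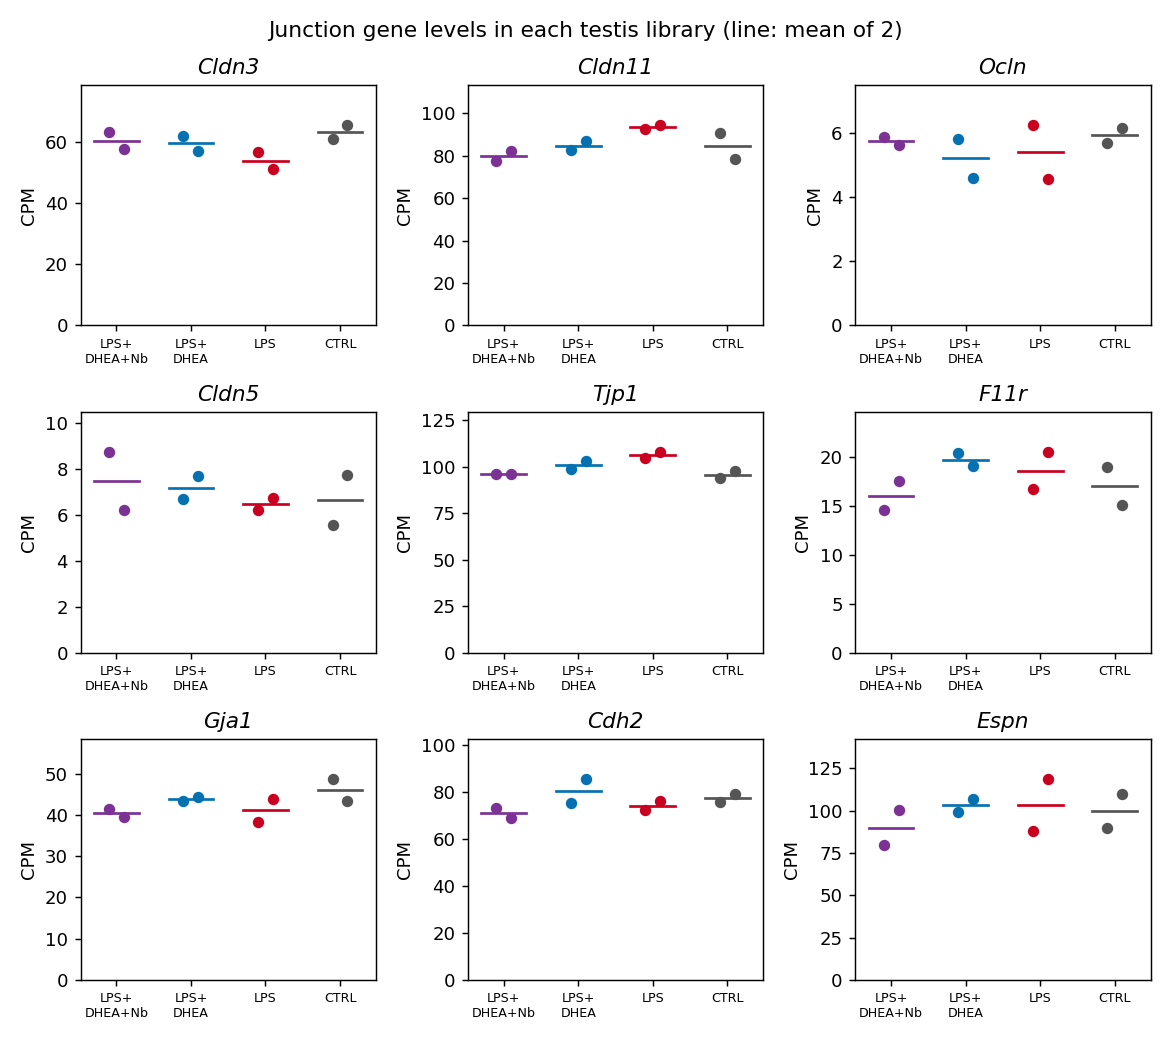
CPM of each junction gene by group, each point 1 library and each line the mean of 2, on axes from 0. For Cldn3 both LPS points (56.6 and 51.1) lie below every other library, and for Tjp1 both LPS points (105 and 107.9) lie above every other library, with no call in any comparison.

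DHEA after LPS was compared with LPS alone to ask what DHEA changed, although the labels name a later injection only for the DHEA groups, so that DHEA and the injection cannot be told apart. No junction gene was called, and none had an unadjusted p under 0.05. Of all genes, 0.0189% were called and 3.51% had an unadjusted p under 0.05. The members' median log2 fold change was 0.08, beside 0.0032 over all genes. Cldn3 had 62 and 57.1 CPM in LPS+DHEA and 56.6 and 51.1 CPM in LPS, which the fit put at 0.15 on the log2 scale (SE 0.09, adjusted p = 1). Cldn11 was at 82.8 and 86.8 CPM in LPS+DHEA, against 92.5 and 94.4 CPM in LPS (-0.14, SE 0.09, adjusted p = 1), and Tjp1 at 98.6 and 103.4 CPM, against 105 and 107.9 CPM (-0.08, SE 0.07, adjusted p = 1). Cldn3 was higher and Cldn11 and Tjp1 lower without overlap, 3 of 9 genes beside 31.8% of all genes (16.1% higher and 15.7% lower). This comparison shares its LPS libraries with LPS versus CTRL.

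The other 6 junction genes overlapped between LPS+DHEA and LPS. Cldn5 was measured at 6.67 and 7.67 CPM in LPS+DHEA, Ocln at 5.82 and 4.61 CPM and F11r at 20.4 and 19.1 CPM. Gja1 stood at 43.4 and 44.4 CPM in LPS+DHEA, Cdh2 at 75.1 and 85.3 CPM, and Espn at 99.3 and 107 CPM. Fitted log2 fold changes of these 6 genes against LPS ran from -0.05 for Ocln to 0.15 for Cldn5, all with an adjusted p of 1. Espn stood at -0.0005, with a 95% interval of -0.41 to 0.41. Against CTRL, LPS+DHEA likewise had no junction gene called and none at an unadjusted p under 0.05, beside 0.151% and 5.72% of all genes. There Tjp1 (log2 fold change 0.08) and F11r (0.21, SE 0.15, adjusted p = 0.962) were higher without overlap, 2 of 9 genes beside 18.6% of all genes higher in this way. None was lower without overlap, beside 16.6%, and 35.3% of all genes did not overlap in either direction.

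The LPS+DHEA+Nb libraries were compared with LPS for the joint effect of DHEA and Nb23-bi. No junction gene was called, against 0.170% of all genes, and 1 had an unadjusted p under 0.05, against 6.56%. The members' median was -0.06 beside 0.0024 over all genes. Cldn11 had 77.4 and 82.4 CPM in LPS+DHEA+Nb, against 92.5 and 94.4 CPM in LPS. Both LPS+DHEA+Nb libraries were lower, by a log2 fold change of -0.23 (SE 0.09, 95% interval -0.42 to -0.04, adjusted p = 0.671). Tjp1 had 96.4 CPM in each LPS+DHEA+Nb library and was also lower without overlap (-0.14, SE 0.07, adjusted p = 0.795). Cldn3 was higher without overlap, at 63.2 and 57.6 CPM in LPS+DHEA+Nb (0.17, SE 0.09, adjusted p = 0.841). In all, 3 of 9 genes did not overlap, beside 36.8% of all genes (18.1% higher and 18.6% lower). The LPS libraries again serve as the baseline here, and in all 3 comparisons with LPS in them the same LPS values enter.

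Adding Nb23-bi to DHEA was assessed by setting LPS+DHEA+Nb against LPS+DHEA. No junction gene was called or had an unadjusted p under 0.05, beside 0.0871% and 4.40% of all genes. Of the 9 genes, 5 were lower without overlap and none higher, beside 17.1% of all genes lower, 15.7% higher and 32.7% in either direction. F11r had 14.6 and 17.6 CPM in LPS+DHEA+Nb and 20.4 and 19.1 CPM in LPS+DHEA (log2 fold change -0.30, SE 0.15, adjusted p = 1). Cdh2 had 73.2 and 68.7 CPM in LPS+DHEA+Nb, against 75.1 and 85.3 CPM in LPS+DHEA (-0.18, SE 0.09, adjusted p = 1). Gja1 was at 41.4 and 39.4 CPM in LPS+DHEA+Nb, against 43.4 and 44.4 CPM (-0.12, SE 0.10, adjusted p = 1). Cldn11 (-0.09) and Tjp1 (-0.07) were the other genes without overlap. The direction of these 5 genes is a description, since none passed the test and each rests on 2 libraries against 2.

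The genes that overlapped between LPS+DHEA+Nb and LPS+DHEA were Cldn3, Cldn5, Ocln and Espn. Cldn5 was at 8.72 and 6.2 CPM in LPS+DHEA+Nb, and Ocln at 5.89 and 5.63 CPM. Espn had 79.7 and 100.4 CPM in LPS+DHEA+Nb, with log2 fold changes of -0.20 against LPS+DHEA and -0.20 against LPS (SE 0.18 for each). Summed over the 9 genes, LPS+DHEA+Nb had 460.4 and 474.2 CPM, LPS+DHEA 494.2 and 515.3 CPM, LPS 481.5 and 523.7 CPM, and CTRL 489.1 and 503 CPM. Both LPS+DHEA+Nb libraries were below the other 6. Spermatogonial markers also stood lowest there, with a sum over 7 genes of 81.2 and 85.7 CPM in LPS+DHEA+Nb. It was 102.7 and 98.8 CPM in LPS+DHEA, 93 and 104.5 CPM in LPS, and 96.5 and 93.2 CPM in CTRL. None of the 7 was called by edgeR, and DESeq2 called 1 in LPS versus CTRL and 1 in LPS+DHEA+Nb versus LPS. Among them Gfra1 was uneven within groups, at 1.43 and 8.69 CPM in LPS+DHEA+Nb and 1.24 and 9.42 CPM in LPS. The part of these markers in the junction values was not tested. Against CTRL, LPS+DHEA+Nb had no junction gene called and none at an unadjusted p under 0.05, beside 0.0303% and 4.28% of all genes. Gja1 (-0.19, SE 0.10) and Cdh2 (-0.13, SE 0.09) were lower without overlap there, each with an adjusted p of 1, 2 of 9 genes beside 16.5% of all genes lower, 16.4% higher and 32.9% in either direction.

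**Figure D3:**
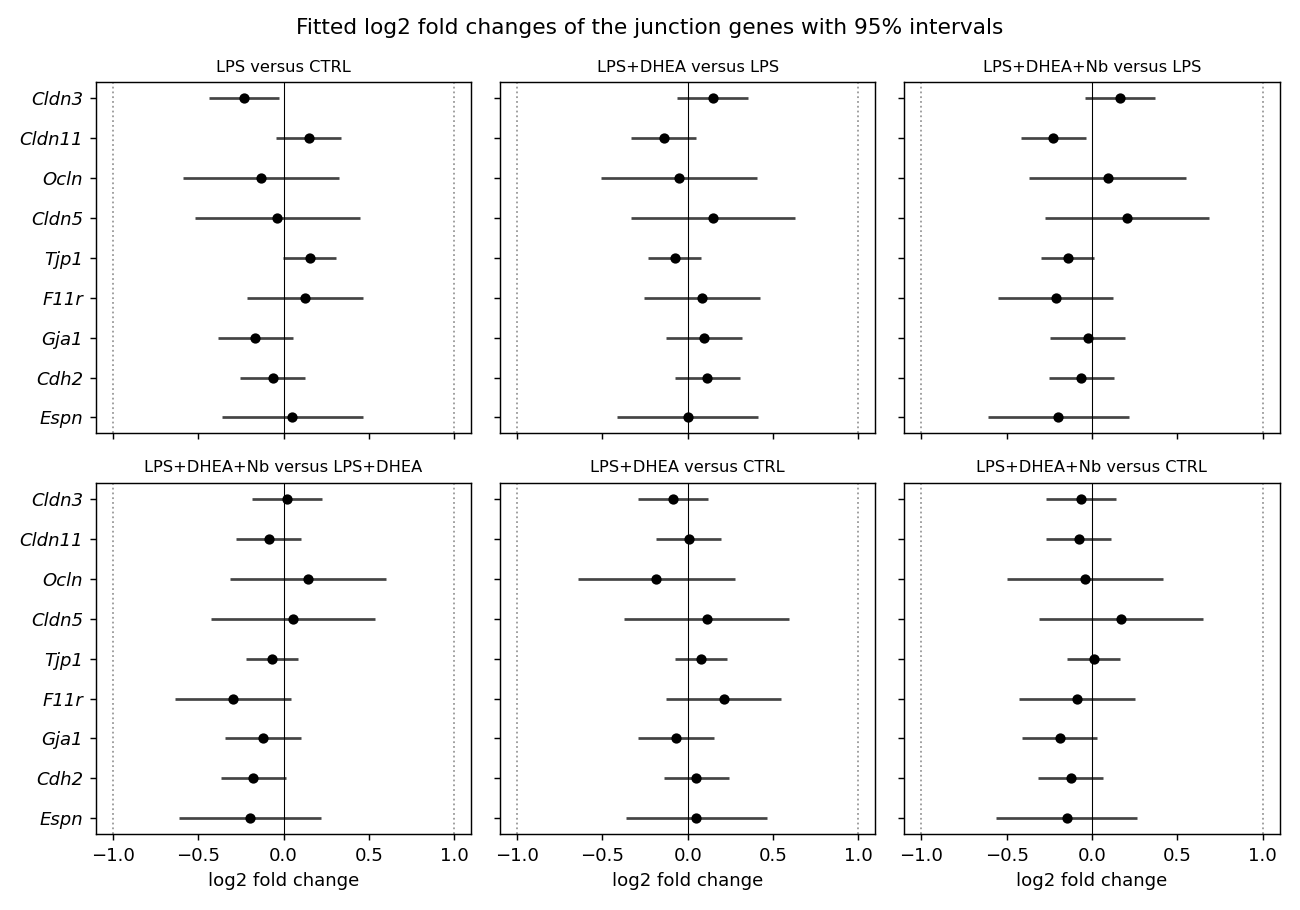
Fitted log2 fold changes of the 9 junction genes with 95% intervals in 6 comparisons, with dotted lines at a 2-fold change either way. All intervals lie between the dotted lines, and 52 of 54 include 0, the exceptions being Cldn3 in LPS versus CTRL and Cldn11 in LPS+DHEA+Nb versus LPS.

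Over the 8 libraries the ratio of the highest to the lowest level was 1.15 for Tjp1, the most even gene, and 1.58 for Cldn5. Espn was the most variable for its level, with a wider spread of log2 CPM than 92.1% of 3195 genes within 2-fold of its mean CPM. Ocln and Tjp1 were less variable than most such genes, since only 30.4% of such genes varied less than Ocln and 31% less than Tjp1. Cldn3 and Cldn11 ran in opposite directions over the 8 libraries (Pearson r = -0.80), and Tjp1 ran with Cldn11 (r = 0.61) and against Cldn3 (r = -0.77). The libraries include the 4 treatments, and these r values are descriptions over 8 points. The genes most like Cldn11 over the 8 libraries were Arfgef2 (Pearson r = 0.95), Dgat1 (0.94) and Slc16a1 (0.94), the highest among 9039 genes with a mean of at least 10 CPM. For Gja1 they were Cdk6 (0.93), Ccdc15 (0.93) and Dnajc4 (0.92). These genes were picked as the highest of 9039 values over 8 libraries, so such r values alone show no link between genes.

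Other junction genes were read from lists of tight junction, adherens junction with ectoplasmic specialization, gap junction and desmosome genes, 61 in all, of which 57 were tested. None was called by edgeR in any of the 6 comparisons. DESeq2 called 1 gene, the connexin gene Gja3, in LPS+DHEA+Nb versus LPS, and limma-voom none. Gja3 had 12 and 33 counts in LPS+DHEA+Nb, 13 and 5 in LPS+DHEA, 0 in both LPS libraries, and 9 and 16 in CTRL. Low deposited values are multiples of 4 more often than high ones, so such small counts may stand for fewer independent reads than their size. An unadjusted p under 0.05 was found for 8 of the 57 genes (14%) in LPS versus CTRL, beside 7.11% of all genes, and for 8 (14%) in LPS+DHEA+Nb versus LPS, beside 6.56%. In LPS+DHEA+Nb versus LPS+DHEA there were 7 (12.3%), beside 4.40%, and in LPS+DHEA versus CTRL 5 (8.77%), beside 5.72%. In LPS+DHEA versus LPS there were 3 (5.26%), beside 3.51%, and in LPS+DHEA+Nb versus CTRL 1 (1.75%), beside 4.28%.

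Among 19 other tight junction genes, 14 had a positive log2 fold change after LPS and the median was 0.11, with none called. The median over all genes was -0.0015. Of the 19, 6 were higher and 0 lower without overlap, beside 18.9% and 18.1% of all genes. The genes of this list with the smallest p were Cgn, encoding the cytoplasmic plaque protein cingulin, and Jam2, encoding the adhesion protein JAM-B. Cgn averaged 62.9 CPM in LPS and 51.6 CPM in CTRL, with a fitted log2 difference of 0.28 (SE 0.09, adjusted p = 0.422). Jam2 averaged 23.9 CPM in LPS and 14.4 CPM in CTRL, a difference that did not pass (0.72, SE 0.23, adjusted p = 0.491). Its LPS libraries were far apart, at 17.7 and 30 CPM, and the fit without LPS replicate 1 gave 1.05 with an adjusted p of 0.0287, while the fit without LPS replicate 2 gave 0.30. JAM-B is also made by endothelial cells, whose marker sum was higher in the LPS libraries as given above. In LPS+DHEA that sum was 59.7 and 48.8 CPM, and Jam2 was at 14.2 and 16 CPM. The part of endothelial RNA in the Jam2 values was not tested. In LPS+DHEA+Nb versus LPS the tight junction list had 5 of 19 positive and a median of -0.12, beside 0.0024 over all genes. There 2 were higher and 4 lower without overlap, beside 18.1% and 18.6% of all genes. The same LPS libraries enter both comparisons, so high LPS values alone would give opposite signs in them.

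Adherens junction and ectoplasmic specialization genes had 15 of 20 positive in LPS versus CTRL, with a median of 0.13 and none called. The median over all genes was -0.0015. Of the 20, 12 were higher and 0 lower without overlap, beside 18.9% and 18.1% of all genes. The list was not tested as a set. Ctnnb1, encoding beta-catenin, averaged 105.3 CPM in LPS and 92.6 CPM in CTRL, with a fitted log2 difference of 0.19 (SE 0.08, adjusted p = 0.642). Itgb1, encoding the integrin beta-1 chain, averaged 49.4 CPM in LPS and 43.4 CPM in CTRL (0.19, SE 0.08, adjusted p = 0.683). The gap junction list had 5 of 11 positive with a median of -0.03, and 2 genes were higher and 2 lower without overlap. Its Gjd3 averaged 4.68 CPM in LPS and 3.65 CPM in CTRL (adjusted p = 0.768). Desmosome genes had 3 of 7 positive with a median of -0.01, and 1 was higher and 2 lower without overlap. Their Dsc3 had 0 counts in both LPS libraries and 12 and 9 counts in CTRL (adjusted p = 0.547), and Pkp4 averaged 18.9 CPM in LPS and 17.5 CPM in CTRL (adjusted p = 0.93). In LPS+DHEA+Nb versus LPS, 3 of 20 adherens genes were positive, with a median of -0.10 and none called. There 0 were higher and 12 lower without overlap, beside 18.1% and 18.6% of all genes, whose median was 0.0024. This comparison again shares its LPS libraries with LPS versus CTRL, so opposite signs are not independent results. Marker sums of cells outside the barrier also differed between these groups. The sum over 6 peritubular myoid markers was 119.3 and 111.7 CPM in LPS+DHEA+Nb, 170 and 198.3 CPM in LPS+DHEA, 193.7 and 188.6 CPM in LPS, and 113.8 and 103.8 CPM in CTRL, without overlap between LPS and CTRL. In LPS versus CTRL and in LPS+DHEA+Nb versus LPS, all 6 had an unadjusted p under 0.05 and no overlap, edgeR called 1, Acta2, encoding smooth muscle actin, and DESeq2 called 2. The sum over 6 Leydig cell markers was 903.7 and 778.1 CPM in LPS+DHEA+Nb, 614.2 and 602.2 CPM in LPS+DHEA, 699.5 and 676.7 CPM in LPS, and 837.9 and 970.1 CPM in CTRL. Their median log2 fold change was -1.14 in LPS versus CTRL and 0.92 in LPS+DHEA+Nb versus LPS, with none called by edgeR and 3 by DESeq2 in each. Most of the Leydig sum was Insl3, at 544.5 and 575 CPM in LPS and 551.5 and 597.2 CPM in CTRL (log2 fold change -0.04). In LPS versus CTRL Star was at 0.11, while Cyp17a1, Cyp11a1, Hsd3b1 and Lhcgr were lower without overlap. Over 7 spermatid markers the sums were 15488 and 15853 CPM in LPS+DHEA+Nb, 14281 and 15692 CPM in LPS+DHEA, 14238 and 15020 CPM in LPS, and 16258 and 17057 CPM in CTRL, with none called by edgeR in these comparisons. In LPS versus CTRL, 3 of them had an unadjusted p under 0.05 and were lower without overlap. DESeq2 and limma-voom each called 1 there. Over 7 neutrophil markers the sums were 3.64 and 4.24 CPM in LPS+DHEA+Nb, 6.52 and 4.76 CPM in LPS+DHEA, 7.71 and 5.79 CPM in LPS, and 3.2 and 3.22 CPM in CTRL. S100a8 was called in LPS versus CTRL (adjusted p = 0.0237). Nearly all of the CTRL sum was Mpo, at 3.02 and 3.26 CPM in LPS and 3.2 and 3.08 CPM in CTRL. Of 8 macrophage markers, edgeR called 1, lower in LPS+DHEA+Nb versus LPS (adjusted p = 0.0318). In the other comparisons edgeR called 1 myoid and 1 neutrophil marker in LPS+DHEA versus CTRL, and 1 myoid marker in LPS+DHEA+Nb versus LPS+DHEA. The part of these cells in the list values was not tested.

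**Figure D4:**
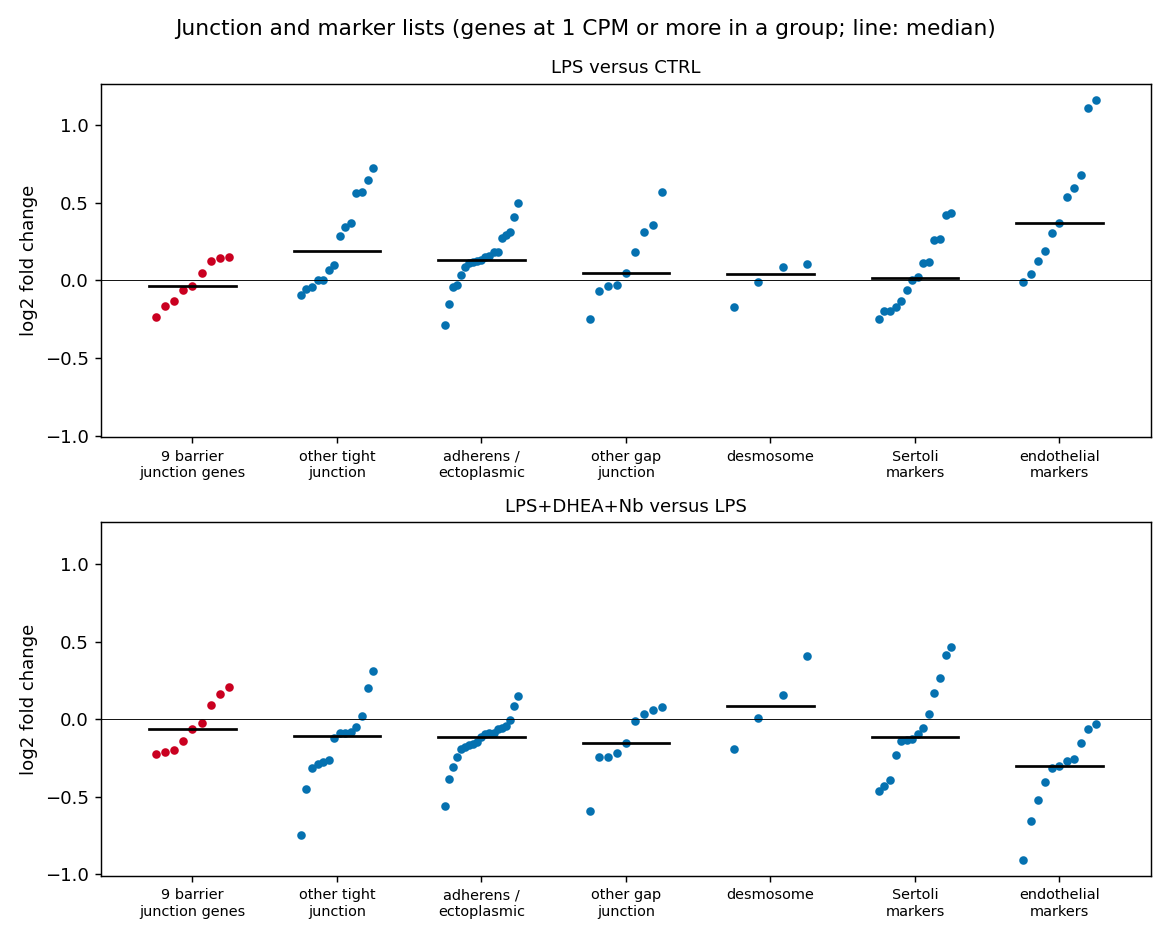
Log2 fold changes of single genes in the junction and marker lists for LPS versus CTRL (top) and LPS+DHEA+Nb versus LPS (bottom), with genes of at least 1 CPM in a compared group and a line at each median. The 9 barrier genes span -0.23 to 0.15 in the top panel and -0.23 to 0.21 in the bottom panel, and the endothelial medians lie at 0.37 and -0.30.

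Among 20 tested regulators of the barrier, Timp1 alone was called. Timp1, an inhibitor of the matrix proteases that can cut junction proteins, had 479 and 581 counts in LPS+DHEA, 676 and 687 counts in LPS, and 54 and 70 counts in CTRL. It rose in LPS versus CTRL (log2 fold change 3.46, SE 0.26, adjusted p = 0.000264) and in LPS+DHEA versus CTRL (3.12, SE 0.26, adjusted p = 0.00176). It fell in LPS+DHEA+Nb versus LPS, to 252 and 163 counts in LPS+DHEA+Nb (-1.73, SE 0.24, adjusted p = 0.018). That last call ended when only the 2 groups compared were in the fit (adjusted p = 0.078), without LPS replicate 2 (adjusted p = 0.0599) and without LPS+DHEA+Nb replicate 2 (adjusted p = 0.07). In LPS+DHEA+Nb versus LPS+DHEA its log2 fold change of -1.38 (adjusted p = 0.0972) was not called by edgeR, but was called with DESeq2 (adjusted p = 0.00016), limma-voom (0.0498), no filter on low counts (0.0131) and without LPS+DHEA+Nb replicate 1 (0.0314). In LPS+DHEA+Nb versus CTRL its log2 fold change of 1.74 (adjusted p = 0.0732) was likewise called with DESeq2 (adjusted p = 5.94e-06), no filter on low counts (0.00479) and without LPS+DHEA+Nb replicate 2 (0.0075). The cytokine gene Il6 had at most 0.141 CPM in any library and was not tested.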

How the data were processed

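Per the labels' protocols, libraries were made from total RNA of testis with the KAPA Stranded RNA-Seq kit; the protocol text also speaks of islets, and the tissue label was used. HISAT and featureCounts 1.5.0-p3 with build GRCm38 are named, with no role, per the submitters' processing notes. The values the authors deposited were read as unscaled estimated counts (expected counts), 1 value for each Ensembl gene. They were whole numbers, so rounding changed none, and 33.5% of values from 1 to 40 were multiples of 4, against 25% from 1000 to 10000, so low counts may hold fewer independent reads than printed. Dividing all values by 4 was an alternative. The sources used here give no strand setting. Symbols (55154 of 55421 identifiers) and exon lengths came from GENCODE M21 (GRCm38), and promoter windows from RefSeq.

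Genes were filtered with filterByExpr (minimum count 10, minimum total 15) and scaled by TMM in edgeR 4.0.16 under R 4.3.3. All 8 libraries entered 1 robust quasi-likelihood fit of 4 group means, leaving 4 residual degrees of freedom, with Benjamini-Hochberg adjustment over all genes in each of 6 comparisons and a call at an adjusted p under 0.05. The SE is the fold change divided by the square root of F, and intervals use the model's t quantile. DESeq2 1.42.0 and limma-voom (limma 3.58.1) were alternatives. The steps were also run on simulated data, whose outcome is not reported here and backs none of the results above.

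The 9 genes, the lists and the tests were chosen with earlier results of these data known. By the rule for names, all 9 genes are given, then called genes of each junction or regulator list or else its 2 genes of smallest p in LPS versus CTRL, and the 3 genes most correlated with Cldn11 and Gja1. Pals1 had no symbol match.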

Additional observations from a re-analysis of the deposited data

How the results depend on the processing

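No junction gene was called under any of 17 alternatives in any of the 6 comparisons, and the smallest adjusted p over all of them was 0.539. Of the 54 fold changes of junction genes, 28 kept their direction under all 17 alternatives. Outside leaving out a library, 6 changes of sign occurred, all of values close to 0. These were Cldn11 in LPS+DHEA versus CTRL, at -0.00056 with DESeq2 size factors in edgeR, -0.00056 with DESeq2 and -0.00065 with only the 2 groups compared, and Espn in LPS+DHEA versus LPS, at 0.00016 with library size alone, 0.015 with limma-voom and 0.016 with the replicate block.

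Leaving out each library in turn changed the sign of 26 fold changes in at least 1 case, and the cause was not tested. In LPS versus CTRL the ranges were -0.26 to 0.23 for Cldn5, -0.38 to 0.080 for Ocln, -0.025 to 0.30 for F11r and -0.18 to 0.25 for Espn. For LPS+DHEA versus LPS they were -0.27 to 0.19 for Ocln, -0.060 to 0.23 for F11r, -0.0063 to 0.19 for Gja1 and -0.20 to 0.22 for Espn. For LPS+DHEA+Nb versus LPS they were -0.059 to 0.43 for Cldn5, -0.12 to 0.34 for Ocln, -0.12 to 0.079 for Gja1 and -0.40 to 0.035 for Espn. For LPS+DHEA+Nb versus LPS+DHEA they were -0.042 to 0.090 for Cldn3, -0.20 to 0.29 for Cldn5 and -0.015 to 0.32 for Ocln. For LPS+DHEA versus CTRL they were -0.11 to 0.37 for Cldn5, -0.097 to 0.11 for Cldn11, -0.15 to 0.0093 for Gja1, -0.044 to 0.14 for Cdh2 and -0.095 to 0.20 for Espn. For LPS+DHEA+Nb versus CTRL they were -0.096 to 0.43 for Cldn5, -0.18 to 0.031 for Cldn11, -0.093 to 0.015 for Ocln, -0.019 to 0.042 for Tjp1, -0.24 to 0.085 for F11r and -0.32 to 0.012 for Espn.

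Counts of all genes called moved more. For LPS versus CTRL, LPS+DHEA versus LPS, LPS+DHEA+Nb versus LPS, LPS+DHEA+Nb versus LPS+DHEA, LPS+DHEA versus CTRL and LPS+DHEA+Nb versus CTRL, in this order, they were 78, 5, 45, 23, 40 and 8. Without a filter on low counts they were 140, 10, 87, 42, 80 and 17, and with DESeq2 283, 34, 207, 113, 181 and 71. With only the 2 groups compared, those that moved by over 1.5 times were 20 in LPS+DHEA versus LPS, 19 in LPS+DHEA+Nb versus LPS, 40 in LPS+DHEA+Nb versus LPS+DHEA and 61 in LPS+DHEA versus CTRL. Leaving out a library gave 66 to 118, 10 to 24, 43 to 88, 16 to 64, 27 to 65 and 8 to 37, in the same order of comparisons. The highest counts came without LPS replicate 1 (118), LPS replicate 2 (24), LPS+DHEA+Nb replicate 1 (88, 64 and 37) and LPS+DHEA+Nb replicate 2 (65). Where a group is left with 1 library, that library is assumed to vary like the other groups.

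Same-numbered libraries did not deviate together (r = -0.03 to 0.03 over the 6 pairs of groups), so the number was not taken as a pairing, and the replicate block changed no count by over 1.5 times. Espn was higher in the library numbered 2 in 4 of 4 groups, and 15.7% of all genes went the same way in all 4; with the block its SE in LPS+DHEA+Nb versus LPS was 0.08, in place of 0.18, with an adjusted p of 0.684. The alternatives for Timp1 and for the other junction genes named were chosen after seeing the data.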

Other observations

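The ratio of Cldn3 to Cldn11, chosen after the values were seen, was computed within each library on the CPM scale. It was 0.816 and 0.699 in LPS+DHEA+Nb, 0.749 and 0.658 in LPS+DHEA, 0.612 and 0.541 in LPS, and 0.673 and 0.838 in CTRL. Both LPS libraries were below the other 6, and no test was made of this ratio. A ratio within a library shows unequal levels of the 2 genes and does not say which of them changed.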
